A study of Homo sapiens with 4 samples.

Results

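The 8 tRNAs described here (MT-TP, MT-TE, MT-TS1, MT-TY, MT-TC, MT-TN, MT-TA and MT-TQ, carrying proline, glutamate, serine of the UCN codons, tyrosine, cysteine, asparagine, alanine and glutamine) are those whose RNA has the sequence read from the light-strand file. They were taken by their fixed coordinates and not by a cut on measured values, though with earlier results of these data known. They make up 8 of the 37 mitochondrial genes. Together they cover 551 of the 16500 positions of that file, of which 211 are A or C. MT-TY and MT-TC share 1 position, number 10744.

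The libraries come from mitochondria isolated from HEK-293T cells, an established human embryonic kidney line. Wild-type mitochondria (WT, n = 2 libraries) were compared with mitochondria lacking LRPPRC (LRPPRC KO, n = 2 libraries). Both groups received 1% dimethyl sulfate (DMS) for 5 min at 37 °C. The libraries are labelled as bioreplicates, the labels do not say how the knockout line was made or whether it is a single clone, and the nuclear LRPPRC transcript was not analysed here, which leaves the loss of LRPPRC unchecked in these libraries.

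DMS methylates A and C where their pairing edge is free, and the enzyme TGIRT-III, copying the RNA into DNA, misreads such a base. The value at a position is the percentage of mismatched reads. No library without DMS was used, so a base that carries a native modification on the same edge and a base modified by DMS cannot be told apart. LRPPRC is an RNA-binding protein of the mitochondrial matrix that, with its partner SLIRP, is known for keeping mitochondrial mRNAs stable and polyadenylated. The tRNAs lie between the mRNAs and rRNAs in long precursor transcripts and are cut out at both ends. Each folds into a cloverleaf of an acceptor stem, a D arm, an anticodon arm, a variable region and a T arm. Several of their bases are known to be methylated in the organelle. Base 9, between the acceptor and D stems, is methylated by the complex of TRMT10C. Base 37, next to the anticodon, is methylated by TRMT5 where it is a G and often carries an isopentenyl group where it is an A. Base 58 in the T loop is methylated by TRMT61B in some of them.

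The sequences below are given because the highest values fall on a few of their bases. They are copied from the base column of the light-strand file, 5′ to 3′, with T for U. Capitals mark base 9, the anticodon with base 37 after it, and base 58 where the T loop has 7 bases. MT-TS1 has a single base between the acceptor and D stems and therefore no base 9 is marked. In the line under each sequence, brackets mark the pairs of the best-scoring cloverleaf and dots the unpaired bases.
MT-TP: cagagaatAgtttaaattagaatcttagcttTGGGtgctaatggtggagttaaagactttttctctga
MT-TP pairs: (((((((..((((......)))).(((((.......)))))....(((((.....)))))))))))).
MT-TE: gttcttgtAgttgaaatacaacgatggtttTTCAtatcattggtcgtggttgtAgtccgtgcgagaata
MT-TE pairs: (((((((..((((.....))))((((((.......))))))...(((((.......)))))))))))).
MT-TS1: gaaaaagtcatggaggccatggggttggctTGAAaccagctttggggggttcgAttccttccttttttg
MT-TS1 pairs: (((((((.((((.....)))).((((((.......))))))...(((((.......)))))))))))).
MT-TY: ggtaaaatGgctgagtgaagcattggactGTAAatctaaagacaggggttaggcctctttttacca
MT-TY pairs: (((((((..(((......))).(((((.......)))))....(((((.....)))))))))))).
MT-TC: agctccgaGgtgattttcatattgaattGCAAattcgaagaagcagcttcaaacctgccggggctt
MT-TC pairs: (((((((..((((...)))).(((((.......)))))....((((........))))))))))).
MT-TN: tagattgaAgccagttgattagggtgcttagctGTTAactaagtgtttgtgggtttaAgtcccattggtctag
MT-TN pairs: (((((((..(((..........)))((((((.......))))))....(((((.......)))))))))))).
MT-TA: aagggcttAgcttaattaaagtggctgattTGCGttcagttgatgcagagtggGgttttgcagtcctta
MT-TA pairs: (((((((..((((.....))))((((((.......))))))...(((((.......)))))))))))).
MT-TQ: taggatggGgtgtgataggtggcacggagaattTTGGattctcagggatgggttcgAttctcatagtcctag
MT-TQ pairs: ((((((...((((........)))).(((((.......)))))....(((((.......))))).)))))).

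Each strand file has its own numbering, and the heavy-strand numbers lie 1 below those of GRCh38.p14 for these genes. MT-TP spans 547 to 614 of the light-strand file, which pair with 15955 to 16022 of the heavy-strand file. MT-TE spans 1828 to 1896 of the light-strand file, which pair with 14673 to 14741 of the heavy-strand file. MT-TS1 spans 9056 to 9124 of the light-strand file, which pair with 7445 to 7513 of the heavy-strand file. MT-TY spans 10679 to 10744 of the light-strand file, which pair with 5825 to 5890 of the heavy-strand file. MT-TC spans 10744 to 10809 of the light-strand file, which pair with 5760 to 5825 of the heavy-strand file. MT-TN spans 10841 to 10913 of the light-strand file, which pair with 5656 to 5728 of the heavy-strand file. MT-TA spans 10915 to 10983 of the light-strand file, which pair with 5586 to 5654 of the heavy-strand file. MT-TQ spans 12170 to 12241 of the light-strand file, which pair with 4328 to 4399 of the heavy-strand file. All of these are whole tRNA genes with no intron. The cloverleaf search formed every stem pair in 7 of the 8 and 20 of 21 in MT-TQ, whose acceptor stem holds an A opposite a G. Of the 211 A and C positions, 133 were paired in these cloverleafs and 78 were not. From the sequence alone, the minimum free energy structure of RNAfold shared 20 of 20 cloverleaf pairs in MT-TY and 0 of 21 in MT-TN, the extremes among the 8.

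In wild type, base 9 held the highest A or C value of MT-TP, MT-TE, MT-TN and MT-TA, and it was lower in the knockout in the first 2 and in MT-TA. At A9 of MT-TP, mismatches were 22.3% and 13.2% in the 2 wild-type libraries and 7.62% and 5.88% in the 2 knockout libraries. At A9 of MT-TE they were 24.7% and 16.4% (wild type) against 7.34% and 6.03% (knockout). In both tRNAs the lower wild-type library still stood above the higher knockout library.

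The difference was tested with limma on log2(fraction + 0.001), fitted over all 5544 tested A and C positions of the light-strand file. Relative to wild type, A9 fell by 1.35 ± 0.284 (SE, log2) in MT-TP (limma adjusted p = 0.0150) and by 1.58 ± 0.222 in MT-TE (limma adjusted p = 0.00409). These were the 2 largest changes among the tested positions of the 8 tRNAs. A9 of MT-TA had mismatches of 8.82% and 8.63% (wild type) against 5.23% and 4.98% (knockout), a fall of 0.76 ± 0.0377 (SE, log2; limma adjusted p = 0.000189). That base was also the only one of these sites with many deletions, 13.4% and 13.5% (wild type) against 6.36% and 5.92% (knockout).

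A9 of MT-TN was the highest of all the ninth bases, with mismatches of 45.9% and 34.5% (wild type) against 35.0% and 27.9% (knockout). Its groups overlapped, though each knockout library lay below the wild-type library of the same replicate number. This base was not tested because its mean lay above the upper limit of 0.3 as a fraction. The other 3 tRNAs have a G there, a base whose pairing edge DMS is known to leave largely unmarked. G9 of MT-TQ had mismatches of 22.0% and 17.9% (wild type) against 12.8% and 12.6% (knockout), with no overlap. G9 of MT-TY (6.84% and 5.52% against 5.71% and 5.34%) overlapped between the groups. So did G9 of MT-TC (5.69% and 5.12% against 5.65% and 5.70%). G positions in the rest of the light-strand file also averaged lower in the knockout, at 2.24% (wild type) against 0.767% (knockout).

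In the heavy-strand file, the positions paired with the ninth base of MT-TP, MT-TE, MT-TN and MT-TA had mismatches of at most 2.60% in any library. The high values of these 4 bases were thus seen in the light-strand file only. At A9 of MT-TN the opposite position was 0.654% and 0.516% (wild type) against 2.60% and 1.94% (knockout).

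**Figure D1:**
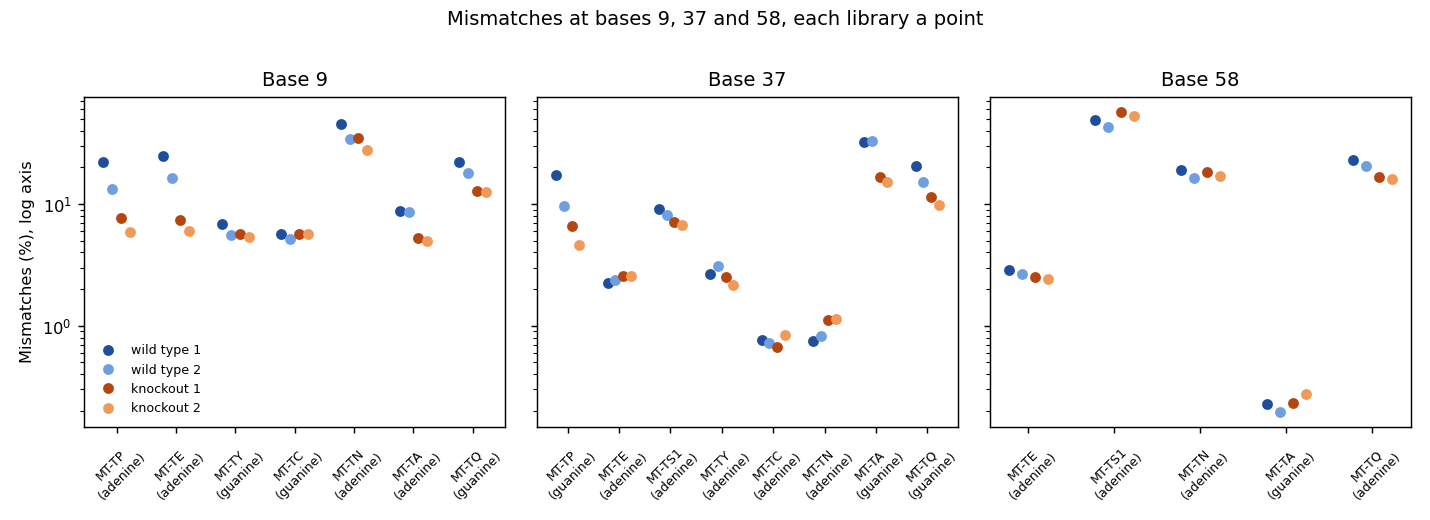
Mismatches in percent (log axis) at base 9, base 37 and base 58 of each tRNA that has the base, with 1 point per library (blue, wild type; orange, knockout). At base 9 the knockout points of MT-TP (7.62% and 5.88%) and MT-TE (7.34% and 6.03%) lie below both wild-type points, while those of MT-TC overlap with the wild-type points.

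The ninth base of the other strand's tRNAs gave a comparison, chosen after the values of the 8 had been seen. Of the 14 heavy-strand tRNAs, 12 have A or G at nucleotide 9, against 7 of the 8 here. The mean log2 value at that base was higher in the light-strand tRNAs than in the heavy-strand tRNAs by 1.66 and 1.53 in wild type. In the knockout this gap was 0.54 and 0.60, so it was smaller in both knockout libraries than in either wild-type library. Between groups, the mean of the 7 light-strand bases differed by -0.68 (log2, knockout minus wild type) and the mean of the 12 heavy-strand bases by 0.34. The gap changed by -1.02 (two-sided exact permutation test over libraries, p = 0.33), and with only the tRNAs that have an A there by -1.39.

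No exact test of 2 libraries against 2 can go below p = 0.33. Among the 7 light-strand tRNAs the groups did not overlap in 4, each lower in the knockout. Among the 12 heavy-strand tRNAs they did not overlap in 8, with 5 higher and 3 lower in the knockout. Over all tested A and C of the light-strand file, 82.3% did not overlap, and nothing is read from these counts. As an example of a rise, MT-TK, the lysine tRNA, had 3.66% and 4.20% (wild type) against 10.1% and 9.86% (knockout). As an example of a fall, MT-TL2, a leucine tRNA, had 4.39% and 3.17% (wild type) against 1.73% and 1.74% (knockout).

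**Figure D2:**
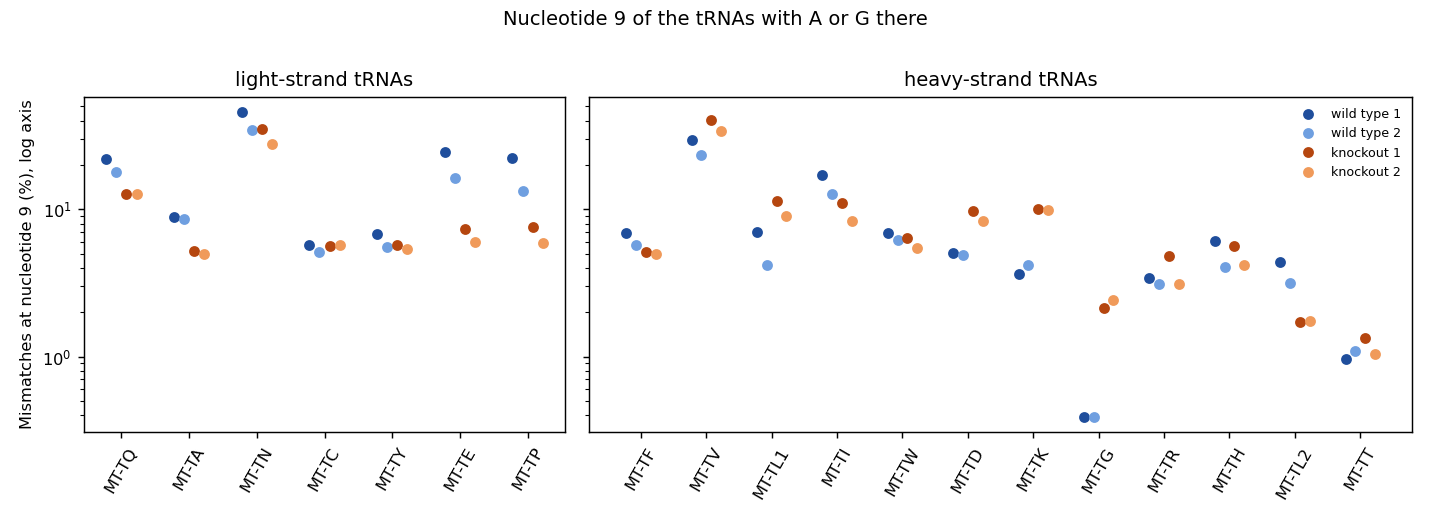
Mismatches in percent (log axis) at nucleotide 9 of the 7 light-strand and 12 heavy-strand tRNAs that have A or G there, with 1 point per library. On the left no tRNA has both knockout points (orange) above both wild-type points (blue), while on the right MT-TV, MT-TL1, MT-TD, MT-TK and MT-TG do.

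In wild type, mismatches at base 37 were higher in the 3 tRNAs with G37 than in the 5 with A37. In 4 of the 5 with A37 they stayed under 4% in every library. In the knockout the letters did not separate, since A37 of MT-TS1 (7.07% and 6.68%) lay above G37 of MT-TP (6.62% and 4.58%). G37 of MT-TA had mismatches of 32.6% and 32.8% (wild type) against 16.8% and 15.2% (knockout). G37 of MT-TQ had 20.4% and 15.1% against 11.4% and 9.77%. G37 of MT-TP had 17.2% and 9.57% against 6.62% and 4.58%. None of the 3 overlapped between groups, and as G positions they were outside the limma fit (two-sided exact permutation test, p = 0.33 for each). The groups did not overlap at A37 of MT-TE, MT-TS1, MT-TY and MT-TN either. G elsewhere also averaged lower in the knockout. Without bases 9, 37 and 58, G of the 8 tRNAs averaged 0.836% (wild type) against 0.558% (knockout). In the rest of the light-strand file G averaged 2.24% against 0.767%. The share of all G without overlap was not counted, and nothing is read from the 3.

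The position paired with G37 of MT-TA was also high in the heavy-strand file, at 25.6% and 25.7% (wild type) against 27.7% and 27.9% (knockout). It is the only site of the 8 tRNAs with a wild-type mean over 10% in both files, and its part in the difference at G37 was not tested. The positions opposite G37 of MT-TP lay between 5.54% and 7.42%, and those opposite G37 of MT-TQ between 2.62% and 3.97%.

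Among the tRNAs with A37, MT-TS1 had the highest level, 9.17% and 8.15% (wild type) against 7.07% and 6.68% (knockout) (limma log2 change -0.33 ± 0.0687 SE, adjusted p = 0.0150). That call was lost without knockout replicate 2 (limma adjusted p = 0.0592). A37 of MT-TN had 0.754% and 0.818% (wild type) against 1.11% and 1.13% (knockout), a rise of 0.46 ± 0.0739 (SE, log2; limma adjusted p = 0.00634), also lost without knockout replicate 2 (adjusted p = 0.0557). A37 of MT-TE had 2.25% and 2.36% against 2.55% and 2.58% (limma log2 change 0.15, adjusted p = 0.0369, not called without wild-type replicate 1 or without either knockout replicate). For MT-TY and MT-TC the limma test at A37 did not pass (adjusted p = 0.0744 and 0.897). After median centring the changes at A37 of MT-TE and MT-TN turned negative, at -0.39 and -0.08.

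Base 32, at the other side of the anticodon loop, was high in MT-TS1 and was named after its values were seen. In that tRNA the base is a C that is known to be methylated at its pairing edge by METTL8. It had mismatches of 38.0% and 30.6% (wild type) against 25.7% and 20.1% (knockout), a fall of 0.58 ± 0.163 (SE, log2; limma adjusted p = 0.0350). All 4 libraries were high, and the groups did not overlap. Its opposite position in the heavy-strand file was 0.465% and 0.507% (wild type) against 2.63% and 2.47% (knockout). The call was lost without wild-type replicate 1 (limma adjusted p = 0.128) and without knockout replicate 2 (adjusted p = 0.0786), and with a lower limit of 0.01 (adjusted p = 0.0578). With quantile normalization no change was left at this base. That scaling sets values by their rank within a library, so it cannot show a change in level of a base that keeps its rank. Nothing is read from that fit here.

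Base 58 was marked in the 5 tRNAs with a T loop of 7 bases, and its levels ranged from near 0.2% to over 50%. A58 of MT-TS1 was the highest position of the 8 tRNAs, with mismatches of 49.6% and 42.9% (wild type) against 57.6% and 52.8% (knockout). The knockout libraries were both above the wild-type libraries, and the position lay above the upper limit for testing (two-sided exact permutation test, p = 0.33). Its opposite position in the heavy-strand file was 1.21% and 1.16% (wild type) against 4.27% and 4.29% (knockout).

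A58 of MT-TQ had 23.2% and 20.4% (wild type) against 16.6% and 16.2% (knockout) (limma log2 change -0.41 ± 0.0689 SE, adjusted p = 0.00752). With quantile normalization its change was 0, with the same limit as at C32 of MT-TS1. At A58 of MT-TN the groups overlapped, with 19.2% and 16.2% against 18.3% and 16.9% (limma log2 change -0.01 ± 0.0933 SE, adjusted p = 0.957). A58 of MT-TE was far lower, 2.85% and 2.64% against 2.52% and 2.44% (limma adjusted p = 0.0770). MT-TA has a G there, and it stayed between 0.197% and 0.276% in the 4 libraries. Base 58 thus had no common direction across these tRNAs.

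These sites carried a large part of the A and C signal in most of the 8 tRNAs. In wild type, bases 9, 37 and 58 made up 68.6% ± 4.47 (SD, n = 2) of the summed A and C values of MT-TN and 50.4% ± 0.275 of those of MT-TS1. They made up 37.0% ± 5.74 in MT-TE and 30.1% ± 7.89 in MT-TP, and 22.7% ± 1.53 and 15.9% ± 2.64 in the knockout. In MT-TC they made up 2.80% ± 0.261 in wild type, the lowest share. All values below are therefore given with and without these bases where they matter.

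**Figure D3:**
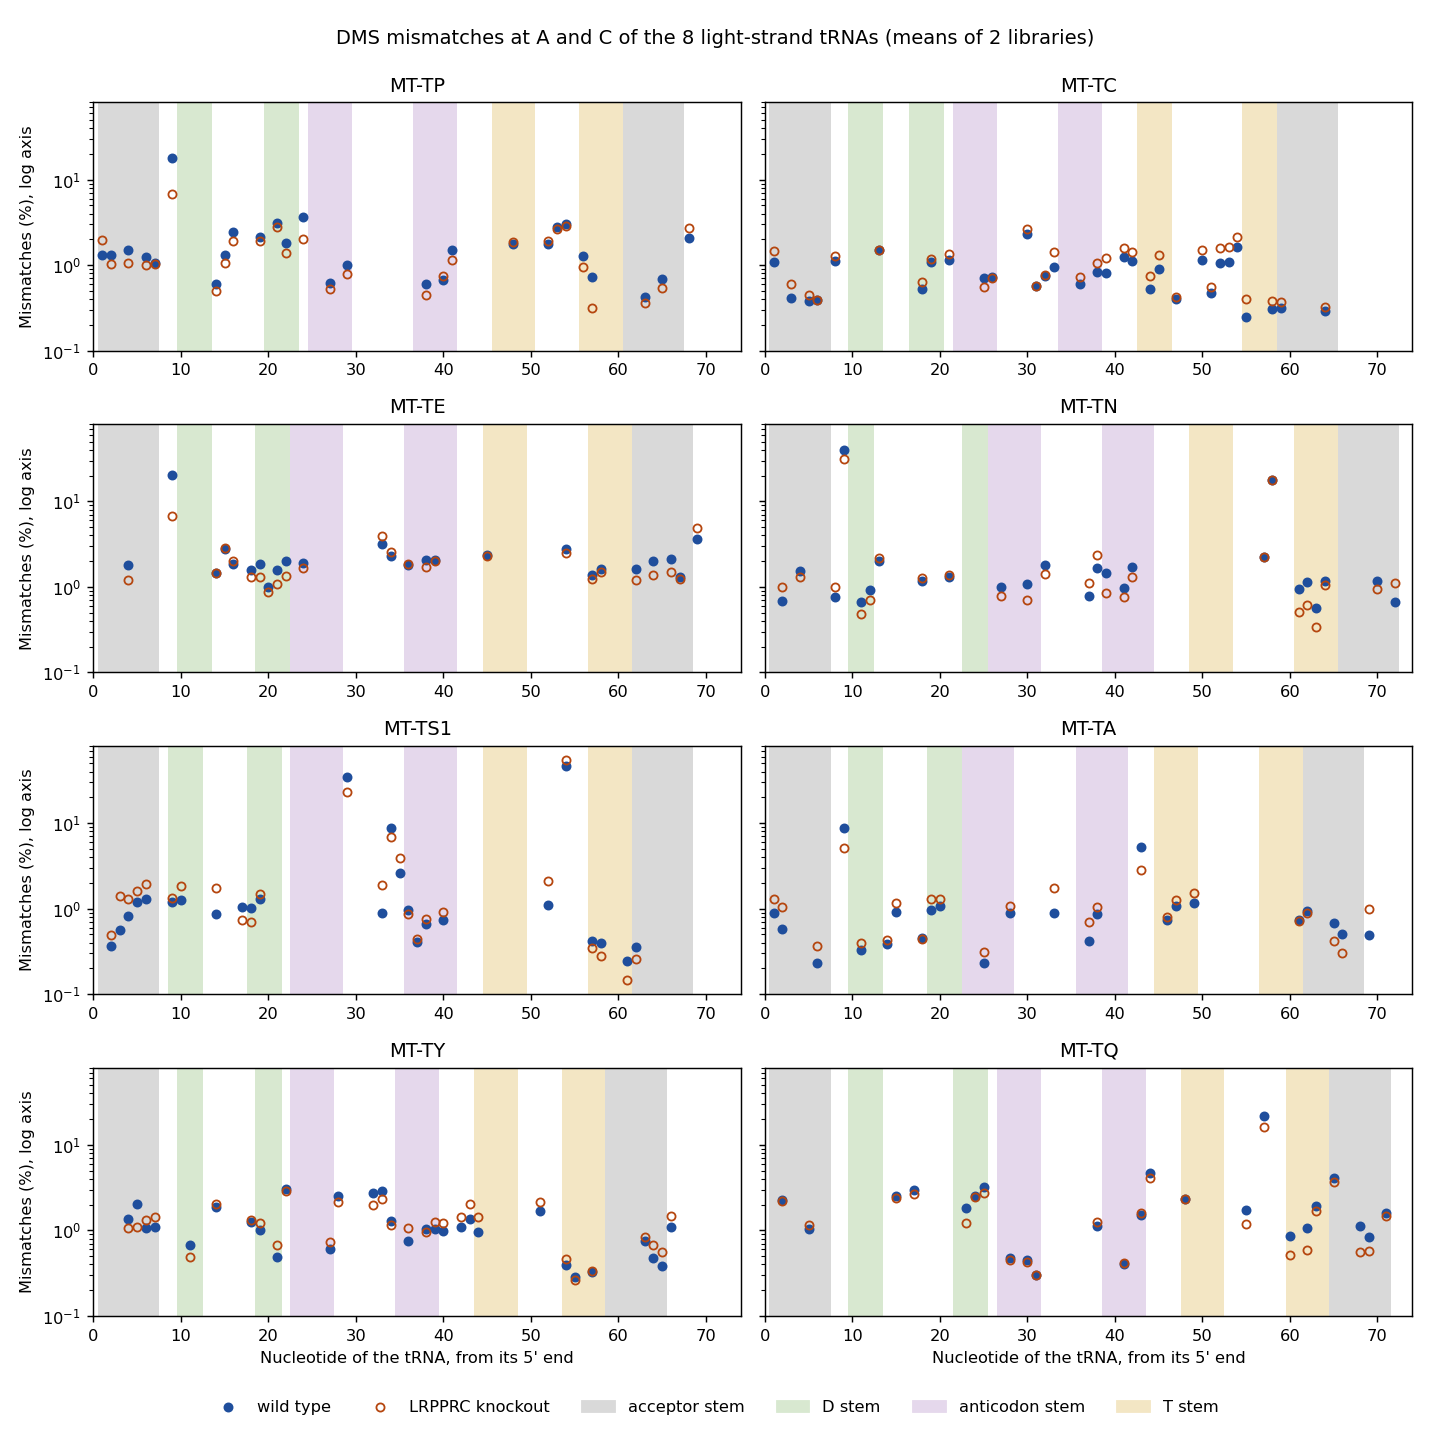
Mean mismatches in percent (log axis) of 2 libraries at every A and C along each tRNA, by nucleotide from the 5′ end, in wild type (filled blue) and LRPPRC knockout (open orange), with the stems shaded. The wild-type points above 10% are A9 of MT-TP, MT-TE and MT-TN, A58 of MT-TS1, MT-TN and MT-TQ, and C32 of MT-TS1.

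Unpaired bases of the cloverleafs had higher values than paired bases in every library. The mean log2 value at unpaired A and C was above that at paired A and C, by 1.17 and 1.04 in the wild-type libraries and by 1.21 and 1.19 in the knockout libraries. The knockout values were above both wild-type values by a small margin (difference 0.09, two-sided exact permutation test, p = 0.33). With A only the difference was 0.0036, and with a pseudocount of 0.01 it was 0.029, and the groups overlapped in both. With the RNAfold structure the gap was 0.43 ± 0.0115 and 0.65 ± 0.0548, a difference of 0.22. Without bases 9, 37 and 58 the gap was 0.74 ± 0.0721 (SD, n = 2, wild type) against 0.90 ± 0.000202 (knockout). In percent, unpaired A without these bases averaged 1.74% ± 0.00591 (wild type) against 1.85% ± 0.0250 (knockout). Paired A averaged 1.22% ± 0.0683 and 1.24% ± 0.0290, and paired C 0.855% ± 0.0250 and 0.746% ± 0.0103.

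The gap between unpaired and paired bases was largest in MT-TS1, at 2.34 and 2.23 (wild type) against 2.50 and 2.36 (knockout). In wild type it was lowest in MT-TC, at 0.72 and 0.63 (wild type) against 0.74 and 0.79 (knockout). MT-TN showed the largest difference between groups, from 1.30 and 1.22 in wild type to 1.67 and 1.65 in the knockout, and the difference was as large without bases 9, 37 and 58 (0.53 ± 0.00393 against 0.95 ± 0.020, SD, n = 2). In MT-TP, MT-TY and MT-TQ the groups overlapped. MT-TA was the tRNA whose gap was lower in both knockout libraries (0.83 and 0.80 against 0.65 and 0.74), and without bases 9, 37 and 58 its groups overlapped.

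A rank measure also set the groups apart over the 8 tRNAs. The area under the ROC curve is the share of all pairs of an unpaired and a paired A or C in which the unpaired one has the higher value. Over the 8 tRNAs it was 0.768 and 0.730 (wild type) against 0.820 and 0.819 (knockout). In wild type MT-TY was best separated, with 0.910 ± 0.0557 (SD, n = 2, wild type) against 0.933 ± 0.0295 (knockout). MT-TA was least separated, with 0.580 ± 0.0119 and 0.681 ± 0.0238. MT-TN had 0.793 ± 0.00943 (wild type) against 0.933 ± 0.0283 (knockout), the largest difference with all bases kept. Without bases 9, 37 and 58 the difference was 0.124 in MT-TN and 0.156 in MT-TE, the largest then. With all bases, in MT-TP, MT-TY, MT-TC and MT-TQ the groups overlapped.

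By region, the connecting bases had the highest mean A and C value in wild type, 10.8% ± 2.34 (SD, n = 2), against 6.50% ± 0.854 in the knockout. The T loop had 6.39% ± 0.640 and 6.74% ± 0.276, the highest in the knockout. With bases 9, 37 and 58 left out the connecting bases had 1.96% ± 0.126 and 1.70% ± 0.0741. The anticodon loop then led with 4.06% ± 0.394 and 3.52% ± 0.215, while the median over all 19 A and C of that loop was 1.81% (wild type) against 2.04% (knockout). C32 of MT-TS1 is among them. The T loop without those bases had 1.55% ± 0.147 (wild type) against 1.77% ± 0.00435 (knockout). The T stem had 0.959% ± 0.0294 and 0.905% ± 0.00978, and the anticodon stem 0.945% ± 0.0195 and 0.904% ± 0.0222. In the acceptor stem and the D loop the groups overlapped.

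The discriminator base, the unpaired base before the CCA tail that aminoacyl-tRNA synthetases read, is an A in 4 of the 8 tRNAs. It had a mean of 1.78% and 1.89% (wild type) against 2.54% and 2.51% (knockout), and it was higher in both knockout libraries in each of the 4. These bases were named after their values were seen. Over all tested A and C of the light-strand file, 82.3% did not overlap between groups and 46.2% were called higher. Nothing is read from the 4 together. In MT-TE the discriminator base was 3.73% and 3.59% (wild type) against 5.08% and 4.73% (knockout) (limma log2 change 0.41 ± 0.0484 SE, adjusted p = 0.00226). In MT-TA it was 0.361% and 0.620% against 0.862% and 1.14% (0.92 ± 0.264, limma adjusted p = 0.0373). The limma test did not pass for MT-TP (adjusted p = 0.0923) or MT-TY (adjusted p = 0.0624). The call of MT-TA was lost without wild-type replicate 1 (limma adjusted p = 0.0771) and without knockout replicate 2 (adjusted p = 0.126), and after median centring (0.38, adjusted p = 0.256). Centring turned the other 3 negative, at -0.13 in MT-TE (limma adjusted p = 0.0696), -0.17 in MT-TP and -0.13 in MT-TY, none of them called. The base of MT-TY is the position it shares with the 5′ end of MT-TC.

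**Figure D4:**
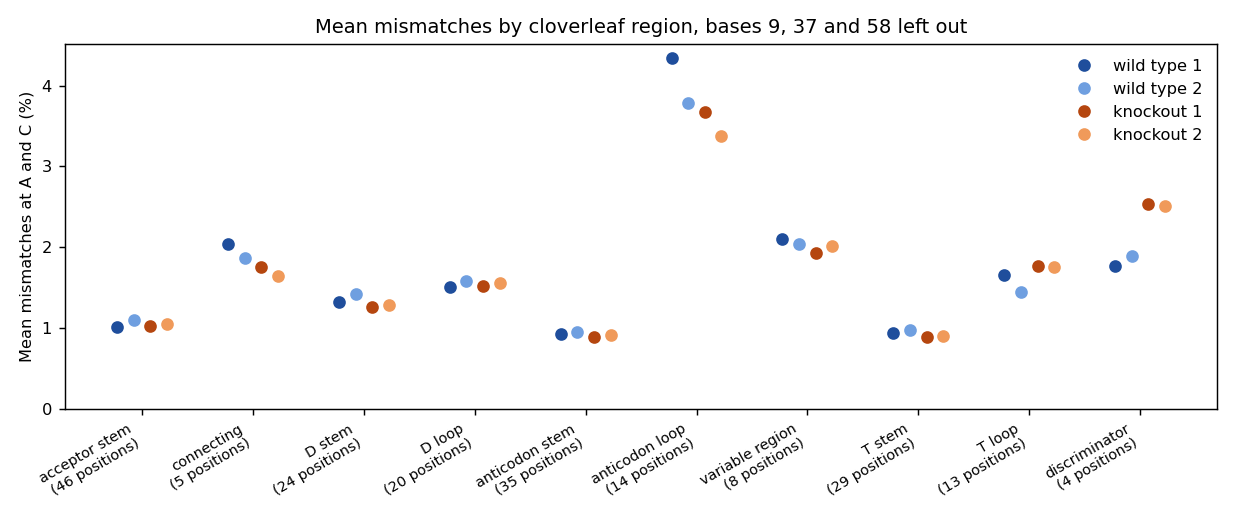
Mean mismatches in percent at A and C of each cloverleaf region over the 8 tRNAs, without bases 9, 37 and 58, with 1 point per library. Both knockout points of the discriminator base (2.54% and 2.51%) lie above the wild-type points (1.78% and 1.89%), while the points of the acceptor stem overlap.

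Positions of the 8 tRNAs passed the test in a smaller share than positions of their file, and that difference was not itself tested. Of their 211 A and C, 208 were tested, since 1 lay under the lower limit of 0.002 as a fraction and 2 above 0.3. With limma and no scaling between libraries, 83 of the 208 passed an adjusted p of 0.05 (39.9%), against 60.6% of all tested positions of the light-strand file. Of the 83, 32 were higher in the knockout and 51 were lower. In the file, 46.2% of tested positions were higher and 14.3% lower. The median log2 change was 0.00 over the 208 positions and 0.22 over the file. The groups did not overlap at 150 of the 208 positions (72.1%), against the same 82.3% in the file.

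The direction of many of these changes depends on the scaling. The library medians of the light-strand file were higher in the knockout by 0.54 (log2), and centring each library on its median subtracts this shift. Then 136 of the 208 positions passed, 3 higher and 133 lower, against 75.4% of the file (24.6% higher and 50.7% lower). Without centring, fewer positions were called when 1 knockout replicate was left out, here and over the file. The median log2 change over the 208 positions was 0.038 without knockout replicate 1 and -0.0069 without knockout replicate 2. Without wild-type replicate 1 or 2 it was 0.018 and 0.020. Over the file these medians were 0.23 and 0.22, and 0.23 and 0.21.

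By tRNA and without centring, the counts were as follows, beside 46.2% higher and 14.3% lower in the file, and they were not tested against each other. In MT-TC, 9 of 32 tested positions rose and 0 fell by the limma test. In MT-TQ, 0 rose and 10 of 24 fell. In MT-TP 1 rose and 9 of 27 fell, in MT-TE 3 rose and 11 of 25 fell, and in MT-TN 2 rose and 10 of 24 fell. MT-TS1 had 9 risen and 3 fallen of 23, MT-TY 5 and 4 of 30, and MT-TA 3 and 4 of 24. After centring, MT-TS1 had 3 higher and 11 lower, and the other 7 had 0 higher, with 8 lower in MT-TA, 12 in MT-TC, 16 in MT-TY, 19 in MT-TN, 21 in MT-TQ, 22 in MT-TP and 24 in MT-TE. By base and pairing without centring, 3 paired C rose and 21 fell of 64, and 10 paired A rose and 13 fell of 68. Of the unpaired A, 14 rose and 13 fell of 62.

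MT-TS1 held 3 of the 10 largest changes, all of them rises. Nucleotide 3, an A of the acceptor stem, had 0.630% and 0.498% (wild type) against 1.29% and 1.51% (knockout) (limma log2 change 1.18 ± 0.139 SE, adjusted p = 0.00230). Nucleotide 33, the last base of the anticodon, had 0.966% and 0.825% against 1.73% and 2.10% (1.01 ± 0.126, limma adjusted p = 0.00270). Nucleotide 14, an A of the D loop, had 0.795% and 0.940% against 1.72% and 1.79% (0.94 ± 0.0923, limma adjusted p = 0.00123). All 3 stayed positive after centring, at 0.64, 0.47 and 0.40, each with a limma adjusted p under the threshold (0.00863, 0.0169 and 0.0213).

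Among tested A and C, the largest falls outside base 9 lay in stems of 2 tRNAs and in the variable region of another. Nucleotide 57 of MT-TP, a C of the T stem, had 0.810% and 0.662% (wild type) against 0.334% and 0.305% (knockout) (limma log2 change -0.99 ± 0.140 SE, adjusted p = 0.00421). Its knockout values lay below the knockout mean at G and T of MT-TP, 0.414% without bases 9, 37 and 58. Nucleotide 68 of MT-TQ, a C of the acceptor stem, had 1.01% and 1.26% against 0.632% and 0.472% (-0.92 ± 0.172, limma adjusted p = 0.0103). Nucleotide 43 of MT-TA, in the variable region, had 4.89% and 5.67% against 2.66% and 3.04% (-0.87 ± 0.0997, limma adjusted p = 0.00211). Nucleotide 33 of MT-TA, the last base of its anticodon, had 0.727% and 1.06% against 1.43% and 2.03% (0.88 ± 0.236, limma adjusted p = 0.0310). That last call was lost without wild-type replicate 1 or knockout replicate 2 (limma adjusted p = 0.104 and 0.0876) and after median centring (0.34, adjusted p = 0.256).

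The highest A or C of MT-TY and of MT-TC was at none of the bases above and did not pass the test. Nucleotide 22 of MT-TY, the A between the D and anticodon stems, had 2.81% and 3.35% (wild type) against 3.21% and 2.52% (knockout) (limma adjusted p = 0.570). Nucleotide 30 of MT-TC, the second anticodon base, had 2.60% and 2.06% against 2.75% and 2.59% (limma adjusted p = 0.217). At both, the groups overlapped.

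As whole molecules, the 8 tRNAs differed in level and in direction between groups. Without bases 9, 37 and 58, the mean at A and C in wild type ran from 2.35% ± 0.259 (SD, n = 2) in MT-TS1, 1.96% ± 0.0239 in MT-TE and 1.78% ± 0.160 in MT-TQ to 1.56% ± 0.0140 in MT-TP. MT-TN followed with 1.21% ± 0.0423 and MT-TY with 1.16% ± 0.0216, which met at 1.18%. MT-TA (0.901% ± 0.155) and MT-TC (0.838% ± 0.111) overlapped. In the knockout the means were 2.15% ± 0.101 in MT-TS1, 1.81% ± 0.00881 in MT-TE, 1.56% ± 0.00781 in MT-TQ and 1.37% ± 0.0215 in MT-TP. The other 4 were 1.10% ± 0.0134 in MT-TN, 1.23% ± 0.0220 in MT-TY, 0.973% ± 0.0842 in MT-TA and 1.04% ± 0.0079 in MT-TC. The groups overlapped in MT-TS1 and MT-TA.

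The mean log2 value of each gene was fitted with limma over all 37 genes. With no centring 4 of the 8 tRNAs passed, 3 lower and 1 higher in the knockout, against 73% of the 37 genes (8.11% higher and 64.9% lower). MT-TP changed by -0.25 ± 0.0356 (SE; limma adjusted p = 0.00312), MT-TE by -0.22 ± 0.0160 (adjusted p = 0.000270) and MT-TN by -0.14 ± 0.0458 (adjusted p = 0.0440). MT-TS1 changed by 0.21 ± 0.0524 (limma adjusted p = 0.0204), while its mean in percent without the 3 bases was lower in the knockout, with overlap. MT-TQ (-0.21, limma adjusted p = 0.0512), MT-TC (0.25, 0.0712), MT-TY (0.11, 0.134) and MT-TA (0.18, 0.260) did not pass. After centring, all 8 were negative, from -0.29 in MT-TC to -0.79 in MT-TP, and 7 passed (not MT-TA, limma adjusted p = 0.0838), against 83.8% of genes (59.5% higher and 24.3% lower).

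Single libraries bear on these gene calls. MT-TN and MT-TS1 lost theirs without knockout replicate 1 and without knockout replicate 2. The log2 changes were then -0.15 and -0.14 in MT-TN and 0.25 and 0.17 in MT-TS1. Without wild-type replicate 1, MT-TA changed by 0.018 and MT-TC by 0.36, and without wild-type replicate 2 by 0.34 and 0.14. With bases 9, 37 and 58 left out 6 were called, with MT-TQ at -0.21 (limma adjusted p = 0.0384) and MT-TC at 0.26 (adjusted p = 0.0430) added to the 4. In that fit 29 of the 37 genes were called. MT-TP and MT-TE stayed lower and past the threshold in each of these fits.

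The 14 heavy-strand tRNAs are the class most like these. The mean log2 value at tested A and C of the 8 tRNAs was above that of the heavy-strand tRNAs by 0.22 and 0.03 in the wild-type libraries and by 0.19 and 0.21 in the knockout libraries. The groups overlapped (two-sided exact permutation test, p = 1) and no change of this gap was detected.

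The G and T positions, whose pairing edge DMS is known to leave largely unmarked, were used as the background. Without a library free of DMS, this use was not checked in these data. Over the 8 tRNAs, G and T averaged 1.03% ± 0.0125 (SD, n = 2, wild type) and 0.707% ± 0.00405 (knockout), against 2.25% ± 0.145 and 2.03% ± 0.0577 at A and C. The ratio of A and C to G and T was 2.19 ± 0.167 (wild type) against 2.88 ± 0.0981 (knockout). In the rest of the light-strand file it was 0.749 ± 0.0186 and 2.19 ± 0.0232. In the heavy-strand tRNAs it was 2.52 ± 0.131 and 2.06 ± 0.0341. In wild type the pooled ratio of the 8 tRNAs thus stood above that of the rest of their file, where G and T exceeded A and C. The wild-type ratios of MT-TC (0.452) and MT-TY (0.681) alone lay below that of the rest.

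The ratio varied widely among the 8. It was lowest in the neighbours MT-TC (0.452 ± 0.0890 in wild type, 0.883 ± 0.0117 in the knockout) and MT-TY (0.681 ± 0.0591 and 1.10 ± 0.0348). It was 5.50 ± 0.930 and 10.7 ± 0.494 in MT-TS1, the largest difference, and 2.97 ± 0.518 and 5.16 ± 0.204 there without bases 9, 37 and 58. Over positions of at most 0.1 as a fraction it was 1.56 ± 0.179 and 3.49 ± 0.172. In MT-TP (2.96 ± 0.137 and 2.90 ± 0.0382) and MT-TN (5.54 ± 1.04 and 5.72 ± 0.737) the groups overlapped. Without bases 9, 37 and 58 they did not, with 3.75 ± 0.170 and 3.31 ± 0.108 in MT-TP and 1.95 ± 0.0897 and 2.12 ± 0.0883 in MT-TN. Without bases 9, 37 and 58, G and T averaged 1.68% ± 0.171 in MT-TY and 1.75% ± 0.142 in MT-TC in wild type, and 1.03% in each in the knockout (SD 0.0173 and 0.0282). In the other 6 it lay between 0.256% in MT-TA and 0.796% in MT-TS1 in wild type.

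**Figure D5:**
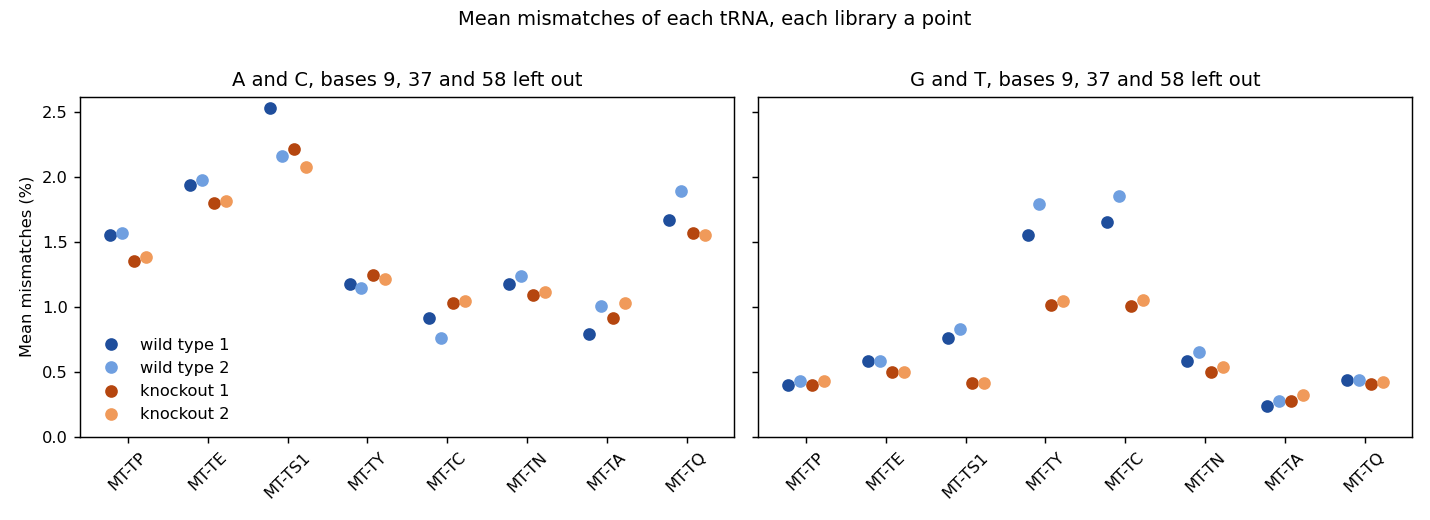
Mean mismatches in percent at A and C (left) and at G and T (right) of each tRNA without bases 9, 37 and 58, with 1 point per library and both axes starting at 0. MT-TY and MT-TC stand out at G and T, with wild-type means of 1.68% and 1.75%, and MT-TS1 at A and C with 2.35%.

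In MT-TY and MT-TC the values at G and T followed those of the paired A and C in the heavy-strand file. Pearson's r across the 35 G and T of MT-TY was 0.907 and 0.926 (wild type) against 0.617 and 0.644 (knockout). Across the 33 of MT-TC it was 0.844 and 0.894, and 0.799 and 0.861. Both values of a pair come from the same library, and the positions are not independent replicates. In MT-TE and MT-TQ r lay between -0.0613 and 0.101 in the 4 libraries, in MT-TP between 0.284 and 0.402 and in MT-TA between -0.340 and -0.176. In MT-TS1 it was 0.547 and 0.50 (wild type) against 0.138 and 0.222 (knockout), and in MT-TN 0.449 and 0.582 against 0.310 and 0.379. Over the same pairs, the heavy-strand A and C opposite MT-TY averaged 2.16% and 2.23% (wild type) against 1.43% and 1.48% (knockout). What this signal adds to the A and C values of MT-TY and MT-TC was not tested.

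Replicates of these tRNAs were alike. Pearson's r of log2 values across the 208 tested positions was 0.972 between the wild-type libraries and 0.981 between the knockout libraries, and from 0.894 to 0.926 between groups. No A or C of the 8 tRNAs was listed at 0 in any library. The files hold fractions without read counts, so the depth behind each value is unknown and no counting interval is given.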

How the data were processed

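DMS-MaPseq libraries of total RNA from isolated mitochondria were analysed as 2 wild-type and 2 LRPPRC knockout samples, each with a file per strand. The deposited values are fractions of mismatched reads per position (mismatches alone, and mismatches with deletions), made by the authors by alignment to the mitochondrial genome, per the labels and the series text. The submitters' processing notes name cutadapt and Bowtie2. Versions, strand assignment and filters are not given in the sources used here. The files hold no read counts, so depth is unknown.

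The 8 tRNAs were taken by fixed coordinates. The members, gene lists and tests were chosen with earlier results of these data known. Light and heavy positions of a pair sum to a constant, and all 16432 pairs checked were complementary. Cloverleafs were found by a scored search (GC 3, AU 2, GU 1, other -2) and compared with RNAfold 2.7.2. log2(fraction + 0.001) of A and C with a mean fraction from 0.002 to 0.3 was fitted with limma 3.58.1 in R 4.3.3, with Benjamini-Hochberg adjustment at 0.05 over all tested positions of the file, or over 37 genes. Libraries were not centred in the main analysis, because the medians of the 2 strand files were seen to move in opposite directions. Other values were compared by two-sided exact permutation over libraries in Python 3.11.15 with scipy 1.17.1. The fit was tested on simulated data with few changed positions, independent noise and no shift between libraries. These data differ on the first and last point, so nothing is read from that test. Named positions were bases 9, 37 and 58, the highest A or C of each tRNA, the 10 largest called changes without overlap, and means above 0.3. The labels name bioreplicates without saying what they share, so p-values measure the spread between these samples. The alternatives were other scalings, pseudocounts, limits, structures, bases and samples. All per-sample columns were mapped.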

Additional observations from a re-analysis of the deposited data

How the results depend on the processing

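The files limit precision through 2 libraries a group and an unknown depth. Of the 25 tested A and C positions named in the report, 9 passed with the same sign in every limma fit that held them. They are A9 of MT-TP, MT-TE and MT-TA, nucleotides 3, 14 and 33 of MT-TS1, nucleotide 57 of MT-TP, nucleotide 68 of MT-TQ and nucleotide 43 of MT-TA. The fit with a lower limit of 0.01 did not hold nucleotide 3 of MT-TS1, 57 of MT-TP and 68 of MT-TQ. The 10 largest changes were named because the main fit called them, and every fit used the same libraries. The share of such positions over the file was not counted, and nothing is read from the 9. The cause of each change listed here was not tested.

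Counts of called positions went from 83 to 136 with median centring and 126 with centring and bases 9, 37 and 58 left out. Over the file they went from 3357 of 5544 to 4179 of 5544 and 4171 of 5533. Leaving out 1 library gave 41 to 96. In such fits the lone sample of a group is assumed to vary like the other group. Counts of called tRNAs went from 4 to 7 under both centred fits, with 31 of the 37 genes called in each. That count also moved when 1 library was left out. The alternative without bases 9, 37 and 58 was added after seeing the data. With the replicate number as a block, 93 positions (43 higher and 50 lower) and 4 tRNAs were called. Over the file 3349 of 5544 positions were called in that fit, and 26 of the 37 genes. The block moved MT-TN (limma adjusted p = 0.0998) and A37 of MT-TE (limma adjusted p = 0.0632) past the threshold to no call, and MT-TQ (limma adjusted p = 8.95e-05) and the discriminator bases of MT-TP and MT-TY (limma adjusted p = 0.0294 and 0.0164) to calls. Deviations from the group means correlated at 0.0449 between samples of the same number over the file and at 0.105 over the 208 positions. At A9 of MT-TP, MT-TE and MT-TN, and at C32 and A58 of MT-TS1, replicate 1 lay above replicate 2 in both groups. G37 of MT-TA went the other way in wild type (32.6% and 32.8%). The block took the limma adjusted p from 0.0150 to 0.000144 at A9 of MT-TP and from 0.0350 to 6.95e-05 at C32 of MT-TS1. A replicate effect at the high sites alone was not tested. With 2 pairs, the replicate numbers were not taken as a pairing.

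Some signs turned with the scaling. With centring, quantile normalization and centring without the 3 bases, the log2 change was -0.33, -0.18 and -0.31 in MT-TS1, -0.44, -0.36 and -0.42 in MT-TY, -0.29, -0.21 and -0.28 in MT-TC, and -0.37, -0.23 and -0.32 in MT-TA. With centring and quantile normalization it was -0.39 and -0.25 at nucleotide 34 of MT-TE, -0.35 (also without the 3 bases) and -0.20 at nucleotide 30 of MT-TC, -0.52 and -0.49 at nucleotide 32 of MT-TC, and -0.082 and -0.068 at nucleotide 37 of MT-TN. The discriminator bases turned to -0.13 in MT-TE, -0.17 in MT-TP and -0.13 in MT-TY under both centred fits, and to -0.031 in MT-TP and -0.12 in MT-TY with quantile normalization. Nucleotide 58 of MT-TN was at 0.59 with quantile normalization. Leaving out 1 library gave -0.27 to 0.064 at nucleotide 22 of MT-TY, -0.12 to 0.17 at nucleotide 32 of MT-TC and -0.13 to 0.11 at nucleotide 58 of MT-TN.

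The change of the gap between unpaired and paired bases turned in MT-TP to 0.30 with the RNAfold structure and 0.065 without the 3 bases, in MT-TS1 to -0.075 and in MT-TY to 0.11 without stem ends, and in MT-TC to -0.046 with the RNAfold structure and -0.0049 with C only. In MT-TA it turned to 0.11 with the RNAfold structure, 0.81 with C only and 0.016 without the 3 bases. In MT-TQ it turned to -0.10 with A only, -0.086 with C only and -0.037 with a pseudocount of 0.01. Leaving out 1 library gave -0.15 to 0.043 in MT-TP, -0.11 to 0.0095 in MT-TY and -0.055 to 0.12 in MT-TQ.

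In percentage points, the difference between groups turned with medians to 0.10 in the acceptor stem, 0.044 in the D stem, 0.019 in the D loop, 0.23 in the anticodon loop and 0.35 in the variable region. With A only it turned to 0.018 in the acceptor stem, 0.021 in the D stem, 0.0058 in the D loop, 0.078 in the anticodon loop and 0.10 in the T stem, and with C only to 0.65 in the variable region. Leaving out 1 library gave -0.063 to 0.026 in the acceptor stem, -0.049 to 0.028 in the D loop and -0.10 to 0.80 in the T loop.

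The difference in the ratio of A and C to G and T turned, with positions of at most 0.1 as a fraction, to 0.38 in MT-TP, 0.32 in MT-TE, -0.94 in MT-TA and -0.31 in MT-TQ. Without the 3 bases it was 0.28 in MT-TE, -0.23 in MT-TA and -0.31 in MT-TQ, and with medians -0.28 in MT-TQ. Leaving out 1 library gave -0.15 to 0.044 in MT-TP and -0.55 to 0.92 in MT-TN. The change of the gap between light-strand and heavy-strand tRNAs ranged over -0.016 to 0.17 when 1 library was left out.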
